A study of Mus musculus with 8 samples.

Results

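Smooth muscle contractile genes were examined in 8 ovarian tumours of mice with and without Nedd9. The genes are Acta2, Actg2, Myh11, Mylk, Tagln, Cnn1, Smtn, Lmod1, Des and Synpo2, taken by name from the array annotation with all their probes. They are 10 of 31709 genes and 13 of 39429 probes on the array. All tumours arose spontaneously in female C57BL/6J mice carrying TgMISIIR-TAg, a transgene in which the promoter of Amhr2, the anti-Muellerian hormone receptor gene, drives the SV40 T antigens. By genotype, 4 mice were Nedd9-WT (WT 1 to WT 4) and 4 were Nedd9-null (null 1 to null 4). No drug was given, ages are not given in the sources used here, and both genotypes carried the transgene. NEDD9, a CAS family scaffold, links focal adhesion kinase and SRC at cell adhesions.

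Smooth muscle contracts when a rise in calcium activates myosin light chain kinase, which phosphorylates the regulatory light chain of smooth muscle myosin and lets the myosin pull on actin filaments. The genes of the apparatus are largely driven by serum response factor, which binds CArG boxes (CC, then A or T bases, then GG) together with its cofactor myocardin. In the ovary, contractile cells surround follicles in the theca externa and form vessel walls, and activated fibroblasts of a tumour stroma also make some of these proteins, Acta2 and Tagln above all.

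Proximal promoters were looked at first, since the members share this regulation in textbook accounts. RefSeq promoter sequence (GRCm38.p6, 250 bases before to 50 after the gene start) was matched for 7 members, Acta2, Cnn1, Des, Lmod1, Mylk, Smtn and Synpo2, and not for Actg2, Myh11 and Tagln. The last 120 bases before the start are given for Acta2 (chr19:34255374-34255493, minus strand), which held 2 CArG-like boxes, and for Cnn1 (chr9:22099133-22099252, plus strand) and Des (chr1:75360172-75360291, plus strand), which held none. Capitals mark boxes with 1 base other than A or T among the inner 6.
Acta2: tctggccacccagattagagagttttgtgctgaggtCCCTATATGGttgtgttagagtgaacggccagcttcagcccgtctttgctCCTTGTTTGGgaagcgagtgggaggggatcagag
Cnn1: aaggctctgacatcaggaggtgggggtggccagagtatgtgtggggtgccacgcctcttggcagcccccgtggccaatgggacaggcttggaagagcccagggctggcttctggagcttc
Des: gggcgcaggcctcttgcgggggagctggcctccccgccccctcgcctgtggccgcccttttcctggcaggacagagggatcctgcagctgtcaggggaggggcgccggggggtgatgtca

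The Acta2 boxes lay at -84 to -75 and -34 to -25 from the RefSeq gene start, which was not checked as the site where transcription begins. A strict CArG box, with all inner bases A or T, was in 0 of the 7 member promoters and in 1.63% of 32851 promoters of the table. The box with 1 other base, a search added after the strict result was seen, was in 1 of 7 member promoters and in 8.5% of all, and 0.822% of all promoters held at least 2 boxes of either kind. The hexamer CATTCC, the core bound by TEAD factors, was in 4 of 7 member promoters (Acta2, Lmod1, Mylk and Smtn) and in 14.7% of all. Both strands were searched, and no CArG-like box overlapped a CATTCC match in these promoters. A match describes these letters alone.

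The arrays read each transcript through probes of 60 bases. Those of Myh11 (mm9, chr16:14202190-14202249, minus strand) and Smtn (mm9, chr11:3420834-3420893, minus strand) are shown as examples. Each holds a reading frame without a stop codon, as does every other member probe except that of Lmod1. An open frame of this length does not place a probe in coding sequence, and the probes were not placed in coding or untranslated sequence. The Smtn probe shown is 1 of 2 that could be compared with each other.
Myh11: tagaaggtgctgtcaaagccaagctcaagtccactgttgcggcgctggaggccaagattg
Smtn: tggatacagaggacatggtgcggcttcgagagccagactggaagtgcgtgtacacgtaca

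The actin genes encode nearly identical proteins, but the Acta2 probe (mm9, chr19:34316060-34316119) and the Actg2 probe (mm9, chr6:83462904-83462963) matched at no more than 21 of 60 bases in any ungapped alignment, with a longest shared run of 6.

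Each tumour was hybridised to 1 array in 1 colour, so the number of arrays limits the precision. Levels are log2 processed signals relative to the 75th percentile of the array. That percentile was 2418 to 3552 in signal units, and 73.0% to 84.6% of probes were well above background. A difference is the Nedd9-null mean minus the Nedd9-WT mean, given with its standard error (SE) from a limma fit over 25536 genes, and p-values are adjusted over all of them (Benjamini-Hochberg, threshold 0.05). Levels of different genes come from different probes and are not compared with each other. The Nedd9 transcript itself was 22.9-fold lower in Nedd9-null tumours (adjusted p = 0.0281, limma). Null 1 stood apart from the other Nedd9-null tumours: its probe values correlated at 0.938 to 0.973 with the Nedd9-WT arrays and at 0.886 to 0.920 with null 2 to null 4. Results are therefore given with and without it. It was singled out by these same expression values. Leaving out the Nedd9-null tumour most like the Nedd9-WT tumours favours larger genotype differences, so a gene that passed only without null 1 is described, not independently tested. Amhr2, expressed by the ovarian somatic cells in which the transgene is active, was at 6.11 to 7.04 in the Nedd9-WT tumours and 6.46 in null 1, but at 0.29 to 2.18 in null 2 to null 4. Each genotype was on a slide of its own, so slide and genotype cannot be told apart.

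No contractile gene passed the threshold between genotypes. Of the 10 members, 9 were well above background on all 8 arrays and were tested, and 0 of the 9 passed, against 0.0666% of all genes (17 of 25536; 0.0587% passed as higher and 0.00783% as lower in Nedd9-null tumours). At an unadjusted p under 0.05 limma gave 0 of 9 members, against 23.9% of all genes. Members whose values did not overlap between genotypes numbered 0 of 9, against 12.7% of all genes. The difference was above 0 in 6 members and below 0 in 3, with a median of 0.08, beside 0.03 over all genes. Only Tagln and Des kept the sign of their difference in all 18 alternatives of processing or of arrays left out. Without null 1, 0 of 9 members passed and 0 had an unadjusted p under 0.05, while 18.7% of all genes passed and 32.6% had such a p; the members' median difference was then 0.01 and that of all genes -0.07. Tumours of the same genotype differed widely in the members: their median within-genotype standard deviation (SD) was 1.00, against 0.43 over all genes, and 8 of 9 lay above that median. The median member was Synpo2, whose spread rests on its brightest probe. A wide spread was not particular to the members, since the median was 1.06 over 10 pericyte and 1.22 over 12 fibroblast markers. In these bulk samples, fewer contractile cells and less contractile RNA per cell cannot be told apart.

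**Figure D1:**
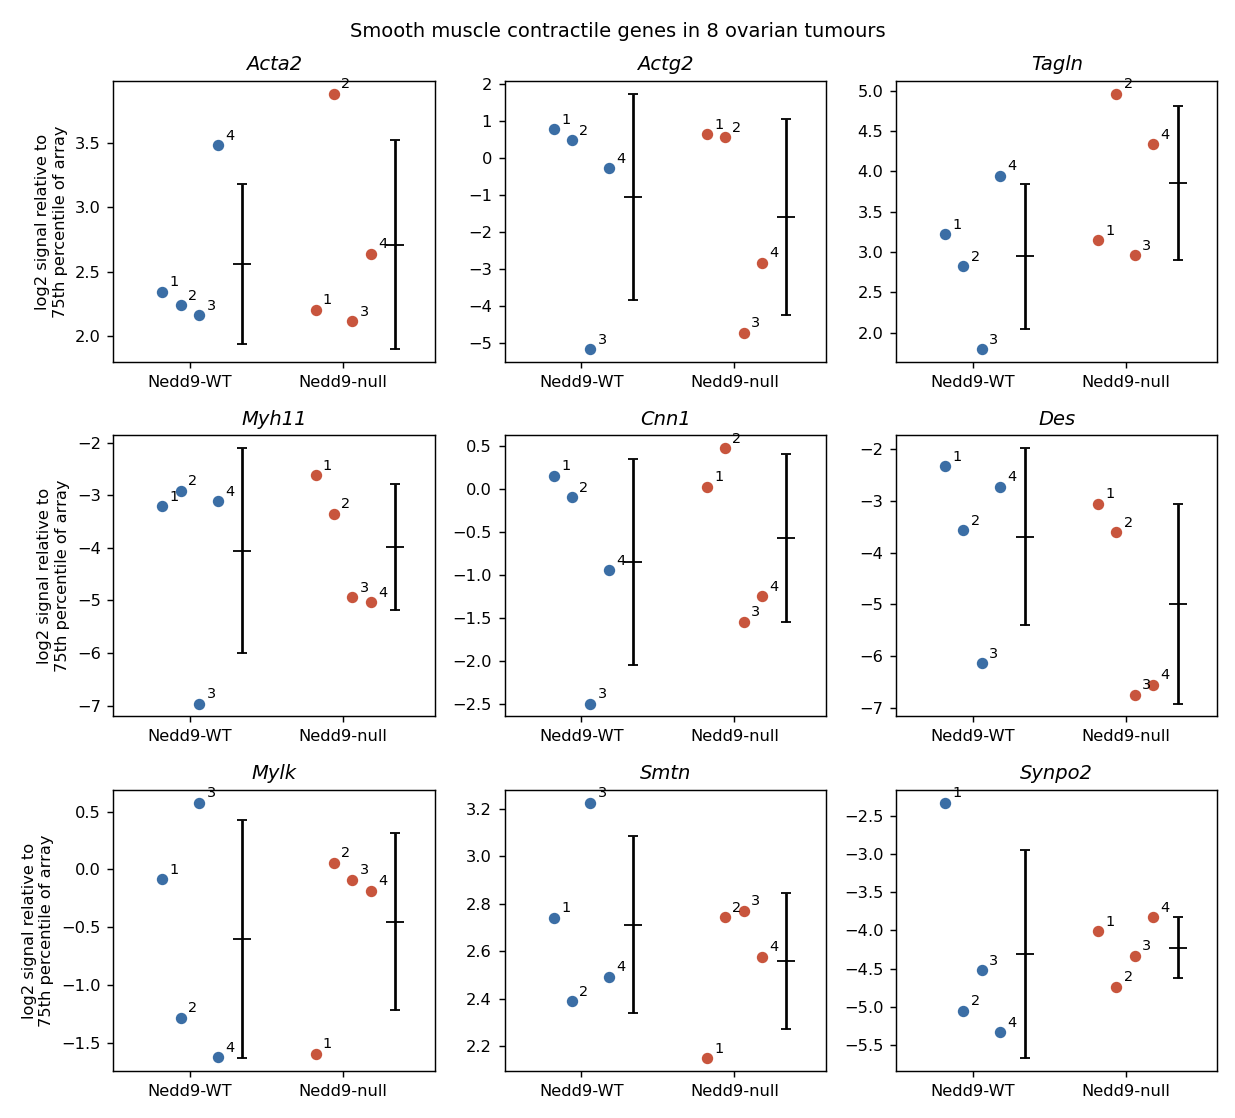
Level of each tested contractile gene (y axis, log2 signal relative to the 75th percentile of the array, with a separate scale per gene) in the Nedd9-WT tumours (blue) and Nedd9-null tumours (red), numbered by replicate, with mean and SD (n = 4) at the right of each group. The genotypes overlap in all 9 panels, and Actg2 runs from -5.17 to 0.78 over the 8 tumours.

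Acta2, the alpha actin of vascular smooth muscle and of myofibroblasts, was at 2.34, 2.24, 2.16 and 3.48 in WT 1 to WT 4 and at 2.21, 3.88, 2.12 and 2.64 in null 1 to null 4. It was high in null 2 and WT 4, and the other 6 tumours lay close together. Its 10 spots on each array had an SD of 0.0267 to 0.0470, a measure of technical noise alone, and WT 2 and null 1 lay within it of each other. The genotype means were 2.56 ± 0.62 (SD, n = 4) in Nedd9-WT and 2.71 ± 0.81 (SD, n = 4) in Nedd9-null tumours, and they differed by 0.15 (SE 0.46, 95% interval -0.92 to 1.23, adjusted p = 0.872, limma). Without null 2 its sign turned, to -0.24.

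Actg2, the gamma actin typical of visceral smooth muscle such as that of gut, bladder and uterus, varied most. Its processed signal was 4924, 4428, 81.3 and 2448 in WT 1 to WT 4 and 3767, 5068, 122 and 501 in null 1 to null 4. On the log2 scale these were levels of 0.78, 0.48, -5.17 and -0.27 in Nedd9-WT and 0.64, 0.56, -4.73 and -2.83 in Nedd9-null tumours. Both genotypes thus held tumours with strong and with weak Actg2 signal, and the top 4 (WT 1, null 1, null 2 and WT 2) were close to each other. The highest tumour had 61.9-fold the signal of the lowest, or 35.9-fold after another background correction (normexp). Only 0.21% of the 21947 genes above background on all arrays had a larger within-genotype SD. The genotype difference was -0.54 (SE 1.68, 95% interval -4.44 to 3.35, adjusted p = 0.876, limma), and without null 1 it was -1.29 (adjusted p = 0.675). The interval leaves room for a large difference either way, and the sign turned without null 3 (0.50) and without WT 1 (0.07).

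Myh11, the smooth muscle myosin heavy chain one of the markers most restricted to smooth muscle, was at -3.21, -2.91, -6.96 and -3.12 in WT 1 to WT 4 and at -2.61, -3.35, -4.94 and -5.03 in null 1 to null 4. One Nedd9-WT tumour, WT 3, was far below the others of its genotype, at a signal of 23.4 against 311 to 422. Null 3 and null 4 lay between, at signals of 106 and 109. The highest and lowest tumours were 20.4-fold apart, but 6.08-fold after normexp. No genotype difference was resolved (0.07, SE 1.01, 95% interval -2.26 to 2.40, adjusted p = 0.976, limma), and without null 1 the value was -0.39 (adjusted p = 0.840).

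Mylk, which encodes the kinase that switches the myosin on, had another order of tumours. It was at -0.08, -1.28, 0.58 and -1.62 in Nedd9-WT and at -1.59, 0.06, -0.09 and -0.18 in Nedd9-null tumours. WT 3, the lowest tumour for Myh11, was the highest for Mylk, and null 1, WT 2 and WT 4 were low. The difference was 0.15 (SE 0.57, 95% interval -1.18 to 1.48, adjusted p = 0.902, limma), and 0.53 without null 1 (adjusted p = 0.549).

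Tagln, which encodes transgelin (SM22), an actin-bundling protein made early in smooth muscle and in myofibroblasts, had the largest positive difference among the members. Its signal was 26707, 22508, 10141 and 45633 in WT 1 to WT 4 and 21427, 107336, 25249 and 71706 in null 1 to null 4. Levels were 3.22, 2.82, 1.79 and 3.95 in Nedd9-WT and 3.15, 4.96, 2.96 and 4.34 in Nedd9-null tumours. Null 2, null 4 and WT 4 were high and WT 3 was low, with the rest between and the genotypes overlapping. The Nedd9-null mean was 1.87-fold the Nedd9-WT mean, a difference of 0.91 (SE 0.59, 95% interval -0.45 to 2.27) that did not pass (adjusted p = 0.387, limma). Without null 1 it was 1.14 (adjusted p = 0.257).

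Cnn1, which encodes calponin, an actin-binding inhibitor of the myosin ATPase, was at 0.15, -0.10, -2.50 and -0.95 in Nedd9-WT and at 0.02, 0.47, -1.55 and -1.25 in Nedd9-null tumours. WT 3, null 3 and null 4 were the lowest, and the range over tumours was 7.83-fold. The difference was 0.27 (SE 0.69, 95% interval -1.31 to 1.86, adjusted p = 0.847, limma) and 0.07 without null 1.

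Smtn, the gene of smoothelin, a filament-associated protein with smooth muscle and broader isoforms, varied least, 2.11-fold from null 1 to WT 3. It was at 2.74, 2.39, 3.23 and 2.49 in Nedd9-WT and at 2.15, 2.74, 2.77 and 2.58 in Nedd9-null tumours. The difference was -0.15 (SE 0.24, 95% interval -0.71 to 0.40, adjusted p = 0.742, limma), the narrowest interval of the 9, and -0.02 without null 1. Both Smtn probes, 3364 bases apart from first to last base, ran in parallel: their distance varied by 0.30 over the 8 tumours, and the probe printed above gave a difference of 0.01 (SE 0.22). The within-genotype SD of 0.33 was exceeded by 56.7% of genes, so Smtn was as steady as a typical gene. Lmod1, the gene of leiomodin, which seeds actin filaments in smooth muscle, had 1 probe, with signals of 2.98 to 11.1 and not well above background on any array. It gives no level and no test here.

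Des, which encodes desmin, the muscle intermediate filament, had the largest negative difference. It was at -2.33, -3.56, -6.14 and -2.72 in WT 1 to WT 4 and at -3.05, -3.60, -6.75 and -6.56 in null 1 to null 4. WT 3, null 3 and null 4 were again low, at signals of 30.3 to 41.9, and the other 5 tumours lay between 270 and 570. Its 10 spots per array had an SD of 0.0351 to 0.260, largest on those dim arrays; this measures technical noise alone. The difference was -1.30 (SE 1.14, 95% interval -3.93 to 1.33, adjusted p = 0.528, limma), and -1.95 without null 1 (adjusted p = 0.281). From highest to lowest, tumours were 21.4-fold apart, and 7.62-fold apart after normexp.

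Synpo2, the gene of synaptopodin 2 (myopodin), an actin-bundling protein of the Z-disc and dense bodies, was at -2.33, -5.05, -4.52 and -5.34 in Nedd9-WT and at -4.01, -4.74, -4.33 and -3.83 in Nedd9-null tumours by its brightest probe. WT 1 was high and the other 7 tumours lay between -5.34 and -3.83. The difference was 0.08 (SE 0.63, 95% interval -1.38 to 1.55, adjusted p = 0.953, limma) and 0.01 without null 1, and the range over tumours was 8.04-fold, or 4.95-fold after normexp. Its 3 probes, which span 36099 bases of chromosome 3, did not move together: the distance between pairs of them varied by 1.21 to 2.83 over the tumours. The other probes gave differences of -0.49 (SE 0.35) and 0.07 (SE 0.21). Without null 1 these were -0.74 (unadjusted p = 0.0489, adjusted p = 0.147, limma over probes) and -0.02. In the fit over 31784 probes, 0 of the members’ probes passed, where 0.0535% of all probes did.

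**Figure D2:**
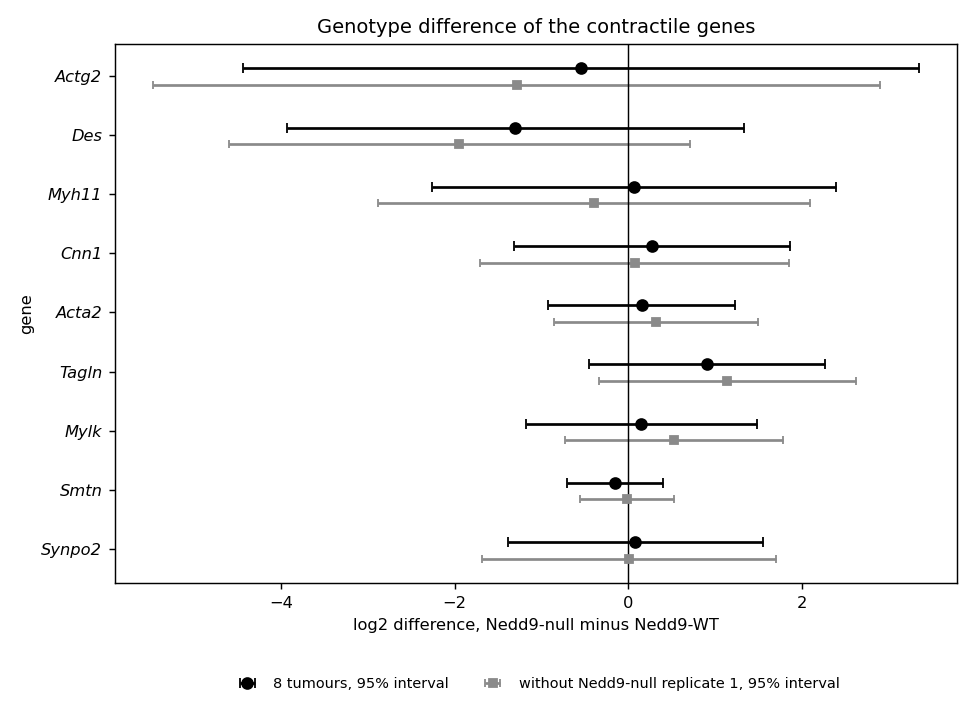
Genotype difference of each tested contractile gene (x axis, log2, Nedd9-null minus Nedd9-WT) with its 95% interval from the limma fit, over all 8 tumours (black circles) and without null 1 (grey squares). All intervals cross 0, from the narrow one of Smtn (-0.71 to 0.40) to that of Actg2 (-4.44 to 3.35).

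The spread was uneven among the members. Ordered by the share of genes with a larger within-genotype SD, Actg2 (0.21%) was followed by Des (1.56%), Myh11 (2.73%), Cnn1 (9.09%), Synpo2 (11.1%), Tagln (13.3%), Mylk (14%), Acta2 (20.9%) and Smtn (56.7%). The median member, Synpo2 by its brightest probe, ranged over 3.01 log2 units across the 8 tumours, against 1.40 for the median gene.

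**Figure D3:**
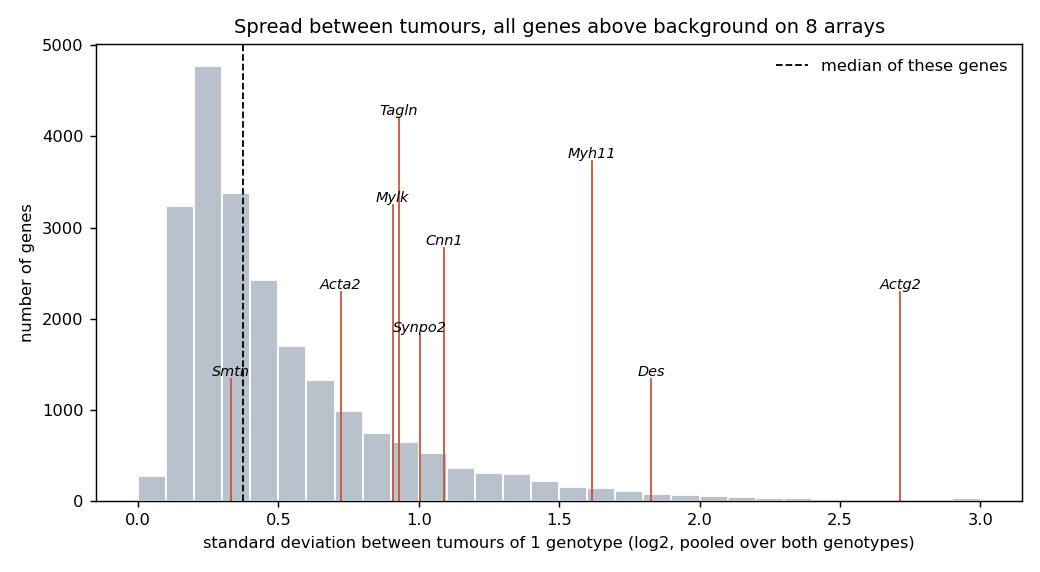
Distribution of the within-genotype SD (x axis, log2, pooled over both genotypes; values above the axis are gathered in the last bar) over the 21947 genes above background on all 8 arrays (y axis, number of genes). Red lines place the 9 contractile genes, each by its brightest probe. Of these, Smtn alone lies below the dashed median of 0.37 and Actg2 lies farthest out.

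The members fell into patterns by which tumours were low or high, a grouping made after their values were seen. For Actg2, Myh11, Cnn1 and Des, the 3 lowest tumours were WT 3, null 3 and null 4, a set shared by 627 of 25536 genes (2.46%). In Acta2 and Tagln, the 3 highest were null 2, null 4 and WT 4, as in 0.905% of genes. Mylk and Smtn were lowest in null 1, WT 2 and WT 4, as in 2.86% of genes. These sets were unchanged under normexp, quantile scaling and the deposited log2 values, and under median scaling except for Smtn. Null 4 thus combined low Actg2, Myh11 and Des with high Tagln, and WT 3 combined the lowest Myh11, Actg2, Cnn1 and Tagln with the highest Mylk and Smtn.

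**Figure D4:**
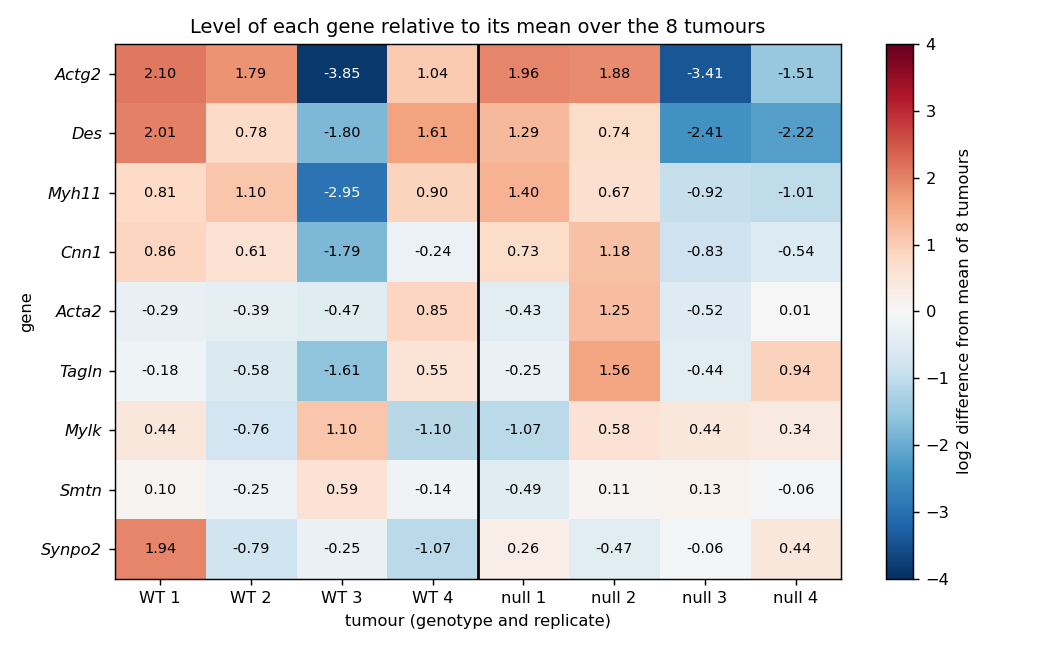
Level of each tested contractile gene (rows) in each tumour (columns, Nedd9-WT left and Nedd9-null right of the line) relative to its own mean over the 8 tumours, in log2 units given in each cell and by colour (red higher, blue lower). WT 3, null 3 and null 4 are low for Actg2, Des, Myh11 and Cnn1, while Mylk and Smtn are highest in WT 3.

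Among the 25 further contractile and actin-binding genes of the wider list, 0 of 25 passed in 8 tumours, with 14 differences above 0, 11 below and a median of 0.13. Without null 1, 5 of 25 passed against 18.7% of all genes, a share near the background. Those were Csrp1, a LIM protein of smooth muscle (1.56, SE 0.23, adjusted p = 0.00416), and Pgm5, a component of dense plaques (2.12, SE 0.56, adjusted p = 0.0408), both higher in Nedd9-null tumours. Cald1, the gene of caldesmon, which holds actin from myosin (-1.76, SE 0.34, adjusted p = 0.0135), Nexn, of an actin-binding Z-disc protein (-1.15, SE 0.30, adjusted p = 0.0389), and Sorbs2, of an adhesion adaptor (-1.49, SE 0.32, adjusted p = 0.0193), were lower, all by limma. With null 1 included, these 5 had adjusted p-values of 0.112 to 0.279. Tpm2 (beta tropomyosin), Fbxl22 and, over a range of only 6.26 to 6.64, Myl6 had the same 3 lowest tumours as Actg2. Tpm2, named for that, was at 0.58, 0.08, -1.07 and 1.16 in WT 1 to WT 4 and at 0.14, -0.07, -1.67 and -1.54 in null 1 to null 4.

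A further list held 22 genes of calcium handling, ion channels, cyclic GMP signalling and the phosphorylation of the myosin light chain. Of these, 21 were tested and 0 passed, with 5 differences above 0, 16 below and a median of -0.37. Of the 21, 6 passed without null 1, again against 18.7% of all genes. Prkg1, the cyclic GMP-dependent kinase that relaxes smooth muscle, was at -3.55, -4.95, -4.22 and -3.88 in Nedd9-WT and at -3.89, -0.73, 0.46 and -0.25 in Nedd9-null tumours. Null 1 lay among the Nedd9-WT values and the other 3 above them all, which gave a difference of 3.05 with it (SE 0.89, adjusted p = 0.112, limma) and 3.98 without it (SE 0.41, adjusted p = 0.00107). Ppp1r12a, the myosin-targeting subunit of the phosphatase, did not overlap between genotypes, at 3.31 to 3.63 in Nedd9-WT and 2.57 to 3.20 in Nedd9-null tumours (-0.65, SE 0.18, adjusted p = 0.108, limma). It passed without null 1, at -0.77 (adjusted p = 0.0163).

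Of 22 transcription factors and cofactors of the contractile programme, 20 were tested and 0 passed, with a median difference of 0.14; 7 of 20 passed without null 1, against 18.7% of all genes. Srf, which encodes serum response factor, was at 0.92, 0.66, 1.35 and 1.41 in Nedd9-WT and at 1.20, 1.84, 2.13 and 1.88 in Nedd9-null tumours (0.68, SE 0.26, adjusted p = 0.175, limma). It was higher in null 2 to null 4 than in every Nedd9-WT tumour, and passed without null 1 (0.87, adjusted p = 0.0397). Myocd, the gene of myocardin, was dim, at -5.44, -4.60, -7.13 and -5.96 in Nedd9-WT and -3.74, -4.78, -5.90 and -8.18 in Nedd9-null tumours, and well above background on 7 of 8 arrays. Its lowest tumours were null 4 and WT 3, and its difference was 0.14 (SE 0.96, adjusted p = 0.949). Mef2d (-1.44, SE 0.33, adjusted p = 0.0870) and Tead1 (-0.49, SE 0.14, adjusted p = 0.111) were below every Nedd9-WT value in all 4 Nedd9-null tumours, and passed without null 1 at -1.62 (adjusted p = 0.0146) and -0.54 (adjusted p = 0.0413). Srf and Myocd were named after their values were seen.

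Relatives of the members gave 0 of 18 tested genes, with a median of -0.06. The list is mostly of non-muscle cells but also holds striated muscle genes such as Mylk2 and Mylk3. Without null 1, 3 of 18 passed, Mylk3 among them, a share near the 18.7% of all genes. Cnn3, the calponin of non-muscle cells, was at 4.74 to 5.32 in Nedd9-WT tumours, 5.40 in null 1 and 3.29 to 3.36 in null 2 to null 4, a pattern unlike that of Cnn1, which overlapped throughout.

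Markers of other cell types that carry some of these proteins were set beside the members. Each list is given as a score, for which every tested gene was set against its Nedd9-WT mean and the log2 differences were averaged. The members scored 0.85, 0.15, -1.24 and 0.25 in WT 1 to WT 4 and 0.36, 0.81, -0.91 and -0.42 in null 1 to null 4. All 10 pericyte markers were tested and 0 passed, with scores of -1.44 to 1.22 in Nedd9-WT and -0.49 to 0.12 in Nedd9-null tumours. WT 3 had the lowest score of both lists. Rgs5, a pericyte signalling regulator named after its values were seen, was at -6.57 in WT 3 and at -1.56 to -0.64 in the other Nedd9-WT tumours. Pdgfrb and Notch3, receptors of mural cells, were at -5.17 and -4.23 in WT 3. Not all pericyte markers were low there. Mcam was highest in WT 3, at 3.78 against 2.66 to 2.97, and Abcc9 was at -0.45 against -1.66, -1.27 and 0.14 in WT 1, WT 2 and WT 4. Both were lower in every Nedd9-null tumour than in every Nedd9-WT tumour (Mcam -0.74, adjusted p = 0.166, and Abcc9 -1.64, adjusted p = 0.0957, limma). Mcam was so only barely, at 2.65 in null 4 and 2.66 in WT 2. Over all genes, 12.7% did not overlap between genotypes. The Nedd9-null range of Rgs5 was -1.95 to -0.93, so null 3 and null 4, low for Actg2 and Des, were not low for it. Notch3 and Cspg4 among the pericyte markers, and Col1a1 and Col1a2 among the fibroblast markers, did have the same 3 lowest tumours as Actg2 and Des. Notch3 was at -2.09 in null 3 and -2.42 in null 4, against -1.90 and -2.03 in the other Nedd9-null tumours. For Cspg4 and Col1a1 the margin was also small: Cspg4 was at -0.13 in null 3 and -0.06 in null 1, and Col1a1 at 1.25 in null 4 and 1.26 in null 1. The part of pericyte content in the members' spread was not tested.

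All 12 fibroblast markers were tested and 0 passed, with scores of -1.33 to 1.71 in Nedd9-WT and -0.18 to 0.67 in Nedd9-null tumours. WT 3 was lowest here too, and WT 1 highest. All 10 endothelial markers were tested and 0 passed, with a median difference of -0.74 and scores of -0.39 to 0.75 and -0.79 to -0.59. Ciliated-cell markers were tested in full (0 of 12 passed, scores of -0.64 to 1.59 in Nedd9-WT and 1.21 to 5.85 in Nedd9-null tumours), as were epithelial markers (0 of 12, scores of -0.35 to 0.47 and -0.59 to 2.41). Granulosa and theca genes (0 of 13) scored -0.46 to 0.45 in Nedd9-WT and -4.63 to -0.55 in Nedd9-null tumours. Without null 1, 12 ciliated and 7 epithelial genes passed as higher and 7 granulosa and theca genes as lower, against 10.3% of all genes higher and 8.36% lower, while 0 of 9 members passed. Of the fibroblast markers, Fap and Cthrc1 then passed as higher and Pdgfra as lower, of the endothelial markers Eng as lower, and of the pericyte markers 0 of 10. The part of these cell types in the members' values was not tested.

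**Figure D5:**
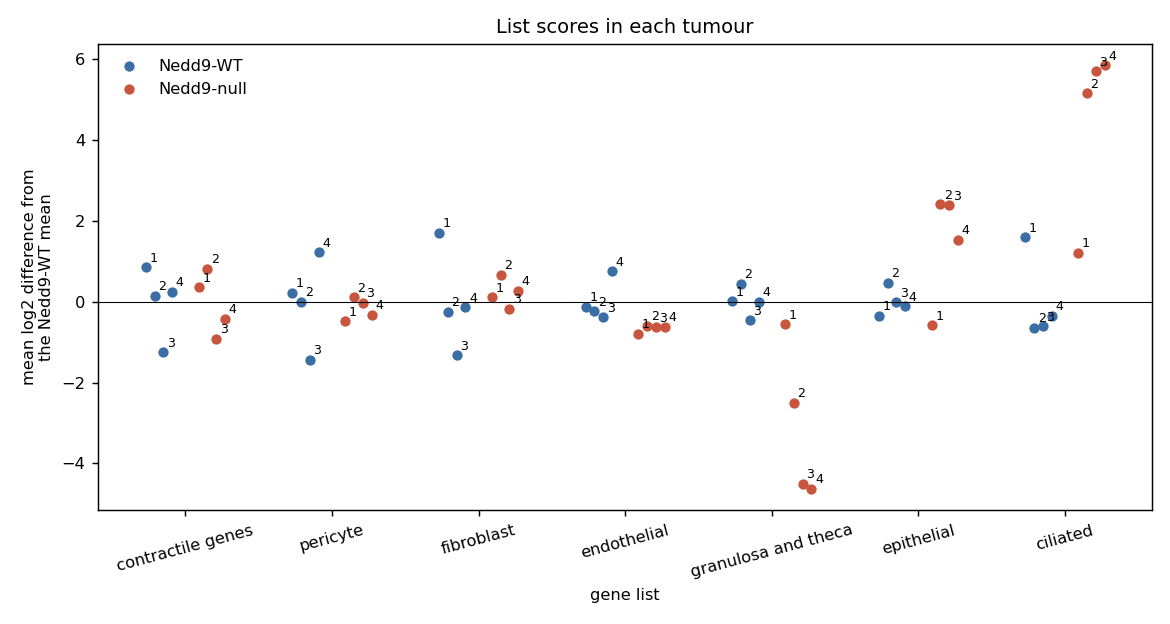
Score of each gene list (x axis) in each tumour (y axis, log2 difference of its genes from their Nedd9-WT means, averaged), numbered by replicate, Nedd9-WT in blue and Nedd9-null in red. The contractile genes overlap between genotypes (-1.24 to 0.85 against -0.91 to 0.81), whereas the ciliated score is 5.16 to 5.85 in null 2 to null 4 and at most 1.59 in the other 5 tumours.

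The genes whose centred levels ran closest to the members' mean profile over the 8 tumours were Pcdhb7, Atg16l2, the unnamed transcript LOC100045113, Ldlrad4, Galt, Tcf7l1, Nat2 and the unnamed transcript ENSMUST00000095282. Their mean absolute distance from the profile was 0.26 to 0.31 log2 units, against a median of 0.68 over 21938 genes above background on all arrays. They were chosen by this distance, so lying below the median follows from the choice. The likeness was partial: Tcf7l1 stood at -0.21 in null 2, where the profile was at 0.83. Pcdhb7, a clustered protocadherin gene and the closest, stood at -1.28 relative to its own mean in WT 3 and at 0.91 in null 1.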

How the data were processed

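The deposited scanner files hold 1-colour intensity values that the authors made with Agilent Feature Extraction 9.5.3, per the submitters' processing notes; per the file headers, the processed intensity is background-subtracted and not normalized between arrays. The authors' deposited value table holds log2 values whose background step is not given in the sources used here. Of 44397 spots per array, 1377 controls were left out, as were spots with outlier flags. Log2 signals were averaged over spots of a probe and scaled to the array's 75th percentile. Probes well above background on at least 3 arrays of a genotype were kept (31784), with the brightest probe per gene (25536 genes). Genotypes were tested 2-sided with lmFit and eBayes of limma 3.58.1, under R 4.3.3. The fit was tested on simulated data. Gene names were updated through RefSeq (GRCm38.p6), by accession for 26055 probes, symbol for 3195 and synonym for 930; 9249 kept the file's name.

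Groups and replicate numbers come from the sample titles. Same-numbered samples of the genotypes deviated with correlations of -0.23 to -0.04, so the numbers did not pair them. The highest correlation between arrays was 0.984. Nothing states separate RNA preparations beyond 1 mouse per array, and p-values measure the spread between these 4 mice per genotype. Members and gene lists were chosen with earlier results of these data known. Named from each list were up to 4 genes with the smallest p, those passing the threshold, and others said to be chosen after their values were seen; not all are printed, and 1 is not reported here. The most similar genes are the 8 with the smallest mean absolute difference from the members' mean profile. Alternatives were normexp (offset 50), median and quantile scaling, the deposited table, other filters and probe rules, an intensity trend with robust prior, array weights, a replicate block and leaving out each array.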

Additional observations from a re-analysis of the deposited data

Results flagged for a closer look

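In groups of 4 tumours, 144 sets of values (the members, the named genes and the list scores, by genotype) were checked for a tumour far from the other 3. By Dixon's criterion 11 passed, where chance would give about 7.2 (1 in 20) for unselected and independent sets. These sets were neither. Many genes were named for small p-values or after their values were seen, and list scores include genes also checked singly. No conclusion is drawn from 11 against 7.2. Among the contractile genes, Acta2 was at 3.48 in WT 4 against 2.16 to 2.34 in the other Nedd9-WT tumours, Myh11 was at -6.96 in WT 3 against -3.21 to -2.91, and Mylk was at -1.59 in null 1 against -0.18 to 0.06 in the other Nedd9-null tumours. Rgs5, a pericyte gene, was at -6.57 in WT 3 against -1.56 to -0.64.

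Null 1 stood apart from null 2 to null 4 in further values. Cnn3 was at 5.40 there against 3.29 to 3.36, Cthrc1, a fibroblast gene, at -5.26 against -2.51 to -2.16, Esr1, the estrogen receptor gene, at -2.08 against 2.37 to 2.63, and Pgr, the progesterone receptor gene, at -9.43 and not well above background against -1.59 to -1.07. The score of the hormone receptor list was 0.58 in null 1 against 1.48 to 1.51, and that of the ciliated list 1.21 against 5.16 to 5.85. The hormone receptor score includes Pgr and Esr1, and also Chrm2, so it is not a separate result. Pgr and Chrm2 were kept by the filter on dim probes through the Nedd9-null tumours alone. In the Nedd9-WT group the ciliated score was 1.59 in WT 1 against -0.64 to -0.34 in the others.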

How the results depend on the processing

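Under 18 alternatives 0 of 9 contractile genes passed, and their median difference ran from -0.19 (without WT 4) to 0.35 (without null 3), with a sign that turned under several. Des (-2.12 to -0.71) and Tagln (0.52 to 1.24) kept their sign in all 18. The number of genes called over the whole array moved from 17 to 4 under median scaling, 4 under quantile scaling, 7 with only probes above background on all 8 arrays, 11 with an intensity trend and robust prior, 5984 with array weights and 0 with the replicate block. Leaving out 1 array gave 0 to 4771 calls: 4771 without null 1, 42 without WT 1, 2 without null 4 and 0 without each of the other 5. Paired by replicate number, 0 members passed in the block fit.

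Signs of differences that never passed turned as follows; the cause was not tested. Acta2 was -0.036 under median scaling and -0.24 to 0.46 with 1 array left out. Actg2 was -1.92 to 0.50 with 1 array left out. Cnn1 was -0.13 with array weights and -0.28 to 0.61 with 1 array left out. Mylk was -0.039 under median scaling and -0.19 to 0.54 with 1 left out. Smtn was 0.052 with array weights and -0.26 to 0.019 with 1 left out. Myh11 was -0.11 with normexp, -0.12 with median scaling, -0.089 with quantile scaling, -0.15 in the deposited table, -0.70 with array weights and -0.90 to 0.45 with 1 left out. Synpo2 was -0.038, -0.11, -0.18, -0.20 and -0.049 in the same order, -0.11 with the mean of its probes and -0.26 to 0.74 with 1 left out; its unadjusted p of 0.0431 without WT 1 (limma, adjusted p = 0.211) was the lowest of any member. Low signals limit the ranges over tumours of Actg2, Des, Myh11 and Synpo2, which normexp, an alternative added after the data were seen for these ranges, shrank to 35.9-, 7.62-, 6.08- and 4.95-fold.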

Other observations

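Receptors through which hormones and transmitters act on smooth muscle included genes at higher levels in null 2 to null 4 than in the other tumours. Of 17 on the list, 12 were tested and 0 passed in 8 tumours (limma), with 3 at an unadjusted p under 0.05; the other 5 were too dim. Without null 1, Esr1, Pgr and Chrm2 passed, against 18.7% of all genes. Pgr and Chrm2 were kept by the filter on dim probes through the Nedd9-null tumours alone, which fixes their direction. Their Nedd9-WT values lay at background, so their passing is no test of a difference, and their p-values are left out. Esr1, the estrogen receptor gene, was at -0.28, -0.50, -3.08 and -0.88 in WT 1 to WT 4 and at -2.08, 2.37, 2.63 and 2.59 in null 1 to null 4, a difference of 2.56 (SE 1.16, adjusted p = 0.228, limma) and of 3.71 without null 1 (SE 0.66, adjusted p = 0.00919). Pgr, the progesterone receptor gene, was well above background in 3 Nedd9-null tumours and in 0 Nedd9-WT tumours. Its Nedd9-null mean was at least 17.9-fold higher than the background bound (measured means -3.30 and -8.88), or 73.8-fold without null 1. Chrm2, a muscarinic acetylcholine receptor gene of smooth muscle and heart, was above background in the same numbers of tumours. It was at least 14.9-fold higher (means -3.62 and -9.43), or 36.9-fold without null 1.

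Of 16 sarcomere and other genes of striated muscle, 12 were tested and 0 passed in 8 tumours (limma), with 7 at an unadjusted p under 0.05. Without null 1, 2 passed as higher and 2 as lower, against 10.3% and 8.36% of all genes. Those higher, Myh2 and Casq1, were kept by the filter through the Nedd9-null tumours alone, which fixes their direction. Their Nedd9-WT values lay at background, so their passing is no test of a difference. Myh2, a fast skeletal myosin heavy chain gene, was above background in 4 Nedd9-null and 0 Nedd9-WT tumours. It was at least 7.75-fold higher (means -4.56 and -8.77), or 13.5-fold without null 1. Tnnt1, the slow skeletal troponin T gene, was at 0.74 to 2.69 in Nedd9-WT and -2.10 to 0.54 in Nedd9-null tumours, which do not overlap (-2.84, SE 0.66, adjusted p = 0.0900; -3.43 without null 1, adjusted p = 0.00305). Actc1, the cardiac actin gene, was also lower in every Nedd9-null tumour, at -7.15 to -5.61 against -5.04 to -1.77 (-2.14, SE 0.74, adjusted p = 0.143). For each bound, the dim genotype's value on an array was raised to the lowest level that counted as well above background there, unless the probe itself was higher, and the genotype means were then compared.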
